A study of Mus musculus with 4 samples.

Results

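The 10 genes described here encode the 5 NF-κB subunits (*Nfkb1*, *Nfkb2*, *Rel*, *Rela* and *Relb*), 3 classical IκB inhibitors (*Nfkbia*, *Nfkbib* and *Nfkbie*), the deubiquitinating feedback enzyme A20 (*Tnfaip3*) and the atypical nuclear IκB protein *Bcl3*. They were picked by symbol as the core of the pathway, and all 10 were found, each once, among the 21926 genes counted. Their transcripts were followed by thymocyte stage in 2 single-cell RNA-sequencing libraries of unsorted mouse thymus, made from 5-week-old mice that are both labelled female and of the same batch. The control mouse (WT) carried *Eif4g2* flox/flox without Cre, and the *Eif4g2* cKO mouse carried CD4-Cre; *Eif4g2* flox/flox. Both therefore carry the floxed alleles and differ by the Cre, whose *Cd4* regulatory elements are known to act from around the double-positive (DP) stage. *Eif4g2* encodes a translation initiation factor related to eIF4G. There was 1 mouse and 1 library per genotype, so that genotype, mouse and library cannot be told apart and the genotypes could not be tested against each other. Every interval given is an exact 95% interval that covers counting error only.

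NF-κB dimers are held in the cytoplasm by IκB proteins until a kinase complex marks the inhibitor for degradation. In thymocytes the canonical arm, with p50 from *Nfkb1* together with RelA or c-Rel, is engaged by T cell receptor signals. The alternative arm, with RelB and p52 from *Nfkb2*, is engaged by receptors of the TNF family through the kinase NIK. Several members of the pathway are known transcriptional targets of NF-κB themselves, which forms feedback loops.

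To show where such loops could be read in the DNA, the promoter windows of RefSeq (GRCm38.p6, from 250 bases before to 50 bases after a start site) were searched on both strands for the 10-base κB consensus. Windows were held for 8 members. At least 1 match lay in the windows of 6 of these 8 genes (*Nfkb2*, *Rel*, *Nfkbia*, *Nfkbie*, *Tnfaip3* and *Bcl3*), compared with 4.51% of all 32851 windows and 5.14% of the 27025 genes that have one. No match to these letters lay in the windows of *Rela* and *Nfkbib*. A match is a description of the sequence only. One stretch per gene is printed 5′ to 3′ on the strand of the gene, with the matches in capitals, because these are the members whose levels are compared below. Neighbouring or overlapping matches run together.
*Nfkb2*, chr19:46304668-46304765, plus strand: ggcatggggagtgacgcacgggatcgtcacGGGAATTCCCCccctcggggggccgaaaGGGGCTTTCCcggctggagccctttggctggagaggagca
*Rel*, chr11:23771021-23771091, minus strand: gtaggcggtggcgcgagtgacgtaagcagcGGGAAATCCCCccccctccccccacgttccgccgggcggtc
*Nfkbia*, chr12:55492637-55492706, minus strand: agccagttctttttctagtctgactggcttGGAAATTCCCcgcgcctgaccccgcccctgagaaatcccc
*Nfkbie*, chr17:45555564-45555633, plus strand: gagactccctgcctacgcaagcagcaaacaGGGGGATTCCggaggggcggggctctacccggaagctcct
*Tnfaip3*, chr10:19015383-19015452, minus strand: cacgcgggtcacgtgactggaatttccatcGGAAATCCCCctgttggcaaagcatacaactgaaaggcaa
*Bcl3*, chr7:19822714-19822783, minus strand: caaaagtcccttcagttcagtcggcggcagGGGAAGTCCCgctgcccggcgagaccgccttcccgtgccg
Counted from the RefSeq start site, the match of *Nfkbia* began 29 bases upstream and that of *Rel* 92 bases upstream. The match of *Tnfaip3* shown here began 12 bases upstream, and a further match in the same window, not printed, began 125 bases upstream. The windows at the other 2 start sites of *Nfkb2* held further matches that are not printed. That of *Bcl3* lay just past the start site.

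The libraries held 6014 WT and 4335 *Eif4g2* cKO cells with 18355050 and 18056277 unique molecular identifiers (UMIs, counted transcripts). Stages were named from clusters by marker genes, and no NF-κB gene was used in the clustering. DN-like (double-negative), DP-like, early post-selection-like and mature single-positive (SP)-like cells numbered 95, 3379, 928 and 455 in WT and 126, 2113, 694 and 49 in *Eif4g2* cKO, with 714 and 904 cycling cells. DP-like cells came from different clusters, since cluster 0 held 3165 WT and 181 *Eif4g2* cKO cells and cluster 1 held 214 and 1932. The cycling cells were split in the same manner. Against the female label, the WT library held 2542 UMIs from the Y chromosome (*Kdm5d*, *Uty* and *Eif2s3y* summed), whereas *Eif4g2* cKO held 1. Counts of *Eif4g2* do not check the deletion, because they are 3′ tags and the floxed exons are not given in the sources used here. They ranged from 139 to 261 CPM (the UMIs of a gene per 1000000 UMIs of its stage) over the stages in WT and from 168 to 521 CPM in *Eif4g2* cKO. They were higher in the library labelled *Eif4g2* cKO at every stage but cycling, against the direction of the label, with 521 and 260 CPM in DP-like, 386 and 261 in early post-selection-like and 275 and 169 CPM in mature SP-like cells. The 2 libraries shared 1055 cell names, which are running numbers and not barcode sequences. Stages are called by these marker-based names below, and WT and *Eif4g2* cKO mean the libraries so labelled.

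Among the subunits, *Nfkb1* (p105, the precursor of p50), *Nfkb2* (p100, the precursor of p52), *Rel* (c-Rel) and *Relb* were at least 1.59-fold above their DP-like level in WT after selection, while *Rela* differed less. *Nfkb1* stood at 57.2 CPM in DN-like, 36.8 in cycling, 53.5 in DP-like, 159 in early post-selection-like and 133 in mature SP-like WT cells. The corresponding *Eif4g2* cKO levels were 44.1, 25.4, 44.2, 72.1 and 43.9 CPM. The gain of *Nfkb1* from DP-like to early post-selection-like cells was 2.97-fold in WT (log2 1.57, interval 1.34 to 1.80) and 1.63-fold in *Eif4g2* cKO (log2 0.71, 0.36 to 1.05), and these intervals did not overlap. In the mature SP-like cells the WT level stayed 2.48-fold above DP-like, and the *Eif4g2* cKO level, from 11 UMIs in 49 cells, was 0.993 times that of DP-like cells with an interval from −1.04 to 0.87 on the log2 scale.

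*Rel* in WT was highest just after selection. Its WT levels were 8.18 CPM in DN-like, 12.4 in cycling, 21.7 in DP-like, 75.6 in early post-selection-like and 34.7 in mature SP-like cells. In *Eif4g2* cKO the same stages gave 7.91, 3.89, 11.2, 14.2 and 16.0 CPM. From DP-like to early post-selection-like cells *Rel* rose 3.48-fold in WT (log2 1.80, 1.45 to 2.15), and only 130 of 7833 genes had a higher ratio there. In *Eif4g2* cKO the same step was 1.27-fold (log2 0.34, −0.42 to 1.09), so that a gain was not detectable at this depth. After thinning each cell to 1000 UMIs, 6.9% of early post-selection-like WT cells (5.35 to 8.72) held a *Rel* UMI, against 1.15% of *Eif4g2* cKO cells (0.499 to 2.26). Without thinning these shares were 11.4% and 3.31%.

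*Relb*, whose product pairs with p52 in the alternative arm, was low until selection. It stood at 4.27 and 4.88 CPM in DP-like WT and *Eif4g2* cKO cells, and at 35.9 and 32.6 CPM in early post-selection-like cells. The rise was 8.41-fold in WT (log2 3.07, 2.38 to 3.81) and 6.69-fold in *Eif4g2* cKO (log2 2.74, 1.95 to 3.61), and 46 and 53 of 7833 genes had higher ratios. *Nfkb2* went from 11.5 to 30.3 CPM in WT and from 6.61 to 18.4 CPM in *Eif4g2* cKO, a rise of 2.63-fold and 2.79-fold. The thinned share of cells with a *Relb* UMI rose from 0.444% to 3.66% in WT and from 0.426% to 3.6% in *Eif4g2* cKO. The 2 genes of the alternative arm thus rose by like amounts in both libraries, with overlapping intervals.

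*Rela*, the main activating subunit, was also highest in early post-selection-like WT cells, by a smaller step. It ranged from 31.2 CPM in cycling to 70.0 CPM in early post-selection-like WT cells, and from 29.5 CPM in cycling to 50 CPM in DP-like *Eif4g2* cKO cells. In WT the early post-selection-like level was 1.33-fold that of DP-like cells (log2 0.41, 0.11 to 0.70), and in *Eif4g2* cKO it was 0.906 times (log2 −0.14, −0.53 to 0.24). Read as an order, *Nfkb1* and *Rela* were close in DP-like cells of both genotypes, and *Nfkb1* stood above the other 4 subunits in post-selection WT cells. Since the tags come from 3′ ends and one UMI is one molecule, these levels were not divided by transcript length, and the order between genes also depends on how well each 3′ end is captured.

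**Figure D1:**
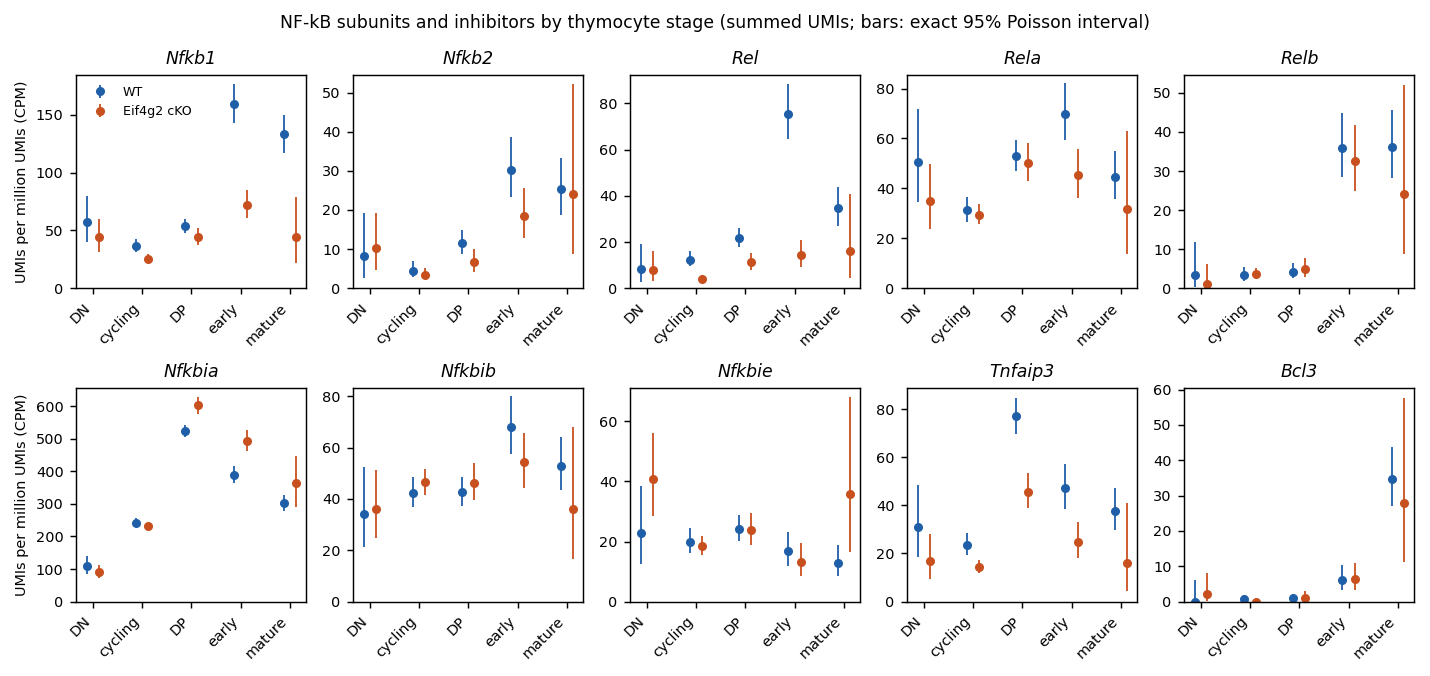
CPM (vertical axis, from 0, with its own scale for each gene) of the 10 genes in 5 thymocyte stages (horizontal axis) for WT (blue) and *Eif4g2* cKO (orange), 1 library each; bars are exact 95% Poisson intervals. *Nfkb1* and *Rel* peak at 159 and 75.6 CPM in early post-selection-like WT cells, *Relb* rises in both libraries, and *Nfkbia* is highest in DP-like cells.

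The inhibitors followed other courses. *Nfkbia* (IκBα, the inhibitor that is degraded and quickly remade after stimulation) was by far the most abundant member, with 5908 UMIs in WT and 5414 in *Eif4g2* cKO. It rose from 110 CPM in DN-like through 243 in cycling to 524 CPM in DP-like WT cells, and then stood at 390 CPM in early post-selection-like and 302 CPM in mature SP-like cells. *Eif4g2* cKO gave 90.4, 232, 603, 494 and 363 CPM in the same order. By CPM *Nfkbia* was therefore highest in DP-like cells in both libraries, and its DP-like interval did not overlap that of any other of these stages in either library. The DN-like CPM was 4.78-fold below DP-like in WT and 6.66-fold below in *Eif4g2* cKO. Per cell, only DN-like cells held fewer *Nfkbia* UMIs than DP-like ones. Cycling, mature SP-like and DP-like cells held 1.59, 1.34 and 0.835 in WT and 1.85, 1.86 and 0.993 in *Eif4g2* cKO. Cells of the first 2 of these stages held more UMIs in all.

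*Tnfaip3* (A20, which edits ubiquitin chains and dampens signals to the IκB kinase) was likewise highest in DP-like WT cells, with 77.1 CPM in DP-like, 47.1 in early post-selection-like, 37.6 in mature SP-like, 31.1 in DN-like and 23.5 CPM in cycling cells. The *Eif4g2* cKO values were 45.7, 24.7, 16.0, 17.0 and 14.3 CPM. By CPM *Tnfaip3* was lower than in DP-like cells at every other stage in both libraries. Per cell this held for early post-selection-like cells only. DN-like, cycling and mature SP-like WT cells held 0.2, 0.154 and 0.167 UMIs, against 0.123 in DP-like ones. In *Eif4g2* cKO they held 0.119, 0.114 and 0.0816, against 0.0752. *Nfkbib* (IκBβ) moved little, from 34.3 to 68.1 CPM over the stages in WT and from 35.9 to 54.2 CPM in *Eif4g2* cKO. *Nfkbie* (IκBε) lay between 12.9 and 24.2 CPM in WT. In *Eif4g2* cKO it lay between 13.2 and 40.7 CPM, with the highest value in DN-like cells.

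*Bcl3*, which binds p50 and p52 dimers in the nucleus, had the steepest rise toward the late stages. It had 0 UMIs in DN-like WT cells, where a floor of 3 UMIs allows up to 4.91 CPM, and 0.642 CPM in cycling and 0.929 CPM in DP-like WT cells. It reached 6.07 CPM in early post-selection-like and 34.7 CPM in mature SP-like WT cells, 37.3-fold above DP-like (log2 5.22, 3.93 to 6.89), from 70 against 5 UMIs. In *Eif4g2* cKO the DP-like, early and mature values were 1.15, 6.32 and 27.9 CPM, the last from 7 UMIs in 49 cells. *Bcl3* and *Relb* are also made by antigen-presenting-like cells, at 56.9 and 61.7 CPM in WT. The summed level of 9 antigen-presenting markers (*Cd74*, MHC class II genes, *Lyz2* and others) in WT was 74.3 CPM in mature SP-like, 86.4 in early post-selection-like and 66.4 CPM in DP-like cells, against 32000 CPM in the antigen-presenting-like cells themselves. *Itgax* was at 0 in the WT mature SP-like and DP-like cells, and *Itgax* and *C1qa* were at 0 in the *Eif4g2* cKO early post-selection-like cells.

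Erythroid-like cells were read as a background, though whether they make some of these transcripts themselves was not tested. Haemoglobin genes and *Alas2* sum to 908000 CPM in them, so that CPM and thinned shares are diluted there, and UMIs per cell are given instead. The 44 erythroid-like WT cells, with a median of 6089.5 UMIs, held 0.114 *Nfkb1* and 0.0909 *Rela* UMIs per cell. DP-like WT cells, with a median of 1407 UMIs, held 0.0852 and 0.0840, so that these levels per cell were not above the erythroid-like ones. The erythroid-like values rest on 5 *Nfkb1* and 4 *Rela* UMIs and may include transcripts of those cells themselves. They therefore do not decide whether the DP-like counts are background. Early post-selection-like WT cells, with a median of 1905 UMIs, held 0.367 and 0.162. *Nfkbia* stood at 0.227 UMIs per cell in erythroid-like, 0.835 in DP-like and 0.901 in early post-selection-like WT cells. Its early level was thus lower than in DP-like cells per UMI but not per cell. *Rel*, *Relb*, *Nfkb2*, *Tnfaip3* and *Bcl3* had 0 UMIs in erythroid-like WT cells, where a count of 3 UMIs allows up to 0.0682 per cell. *Rel* at 0.175 in early post-selection-like WT cells was above that limit, whereas *Relb* at 0.0830 and *Nfkb2* at 0.0700 were near it. DP-like WT cells held 0.00681 UMIs per cell of *Relb* and 0.0183 of *Nfkb2*.

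Counted over all genes, a stage was called above or below DP-like when the log2 ratio passed 1 in both libraries, with at least 50 UMIs over the 2 stages in each. In early post-selection-like cells 2 of the 9 members deep enough were above (*Nfkb2* and *Relb*), against 2.55% of the 7833 genes tested, and 0 were below, against 6.28%. *Nfkb1* and *Rel* passed 1 in WT only. The members' median of the mean ratio over both libraries was 0.45, and that of all genes −0.27. In mature SP-like cells 0 of 6 were above, against 3.11% of genes, and 1 (*Tnfaip3*) was below, against 14.6%. *Relb*, *Nfkb2* and *Bcl3* were too shallow there for the count, since the *Eif4g2* cKO library held 49 such cells, and all 3 passed 1 in both libraries when the minimum was dropped.

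The counts for the stages before DP-like were near those of all genes. In DN-like cells 0 of 6 members were above DP-like, against 4.29% of genes, and 2 (*Nfkbia* and *Tnfaip3*) were below, against 20.8%. In cycling cells 0 of 7 were above, against 6.87%, and the same 2 genes were below, against 23% of all genes tested. The members' median ratio was −0.31 in DN-like and −0.76 in cycling cells, beside −0.60 and −0.56 for all genes.

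**Figure D2:**
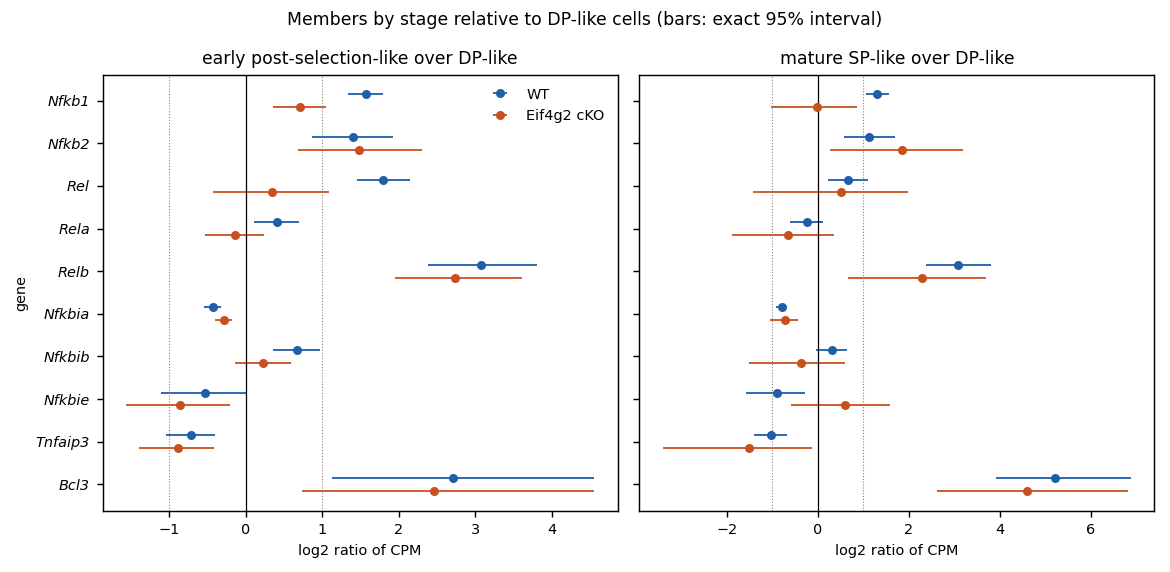
Log2 ratio of CPM (horizontal axis) of early post-selection-like (left) and mature SP-like (right) over DP-like cells for each gene (vertical axis) in WT (blue) and *Eif4g2* cKO (orange), with exact 95% intervals; dotted lines mark a ratio of 1 on the log2 scale in either direction. *Relb* lies at 3.07 and 2.74 in the left panel, while *Rel* lies at 1.80 in WT and 0.34 in *Eif4g2* cKO.

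The comparison of genotypes within each stage asked which of these genes differed between the *Eif4g2* cKO and the WT mouse. *Rel*, *Nfkb1* and *Tnfaip3* were lower in *Eif4g2* cKO early post-selection-like cells, *Relb* and *Bcl3* were level within wide intervals, and *Nfkbia* was slightly higher. *Rel* had 162 WT and 27 *Eif4g2* cKO UMIs there, a log2 ratio of −2.41 (−3.06 to −1.82). Only 17 of 7295 genes had a lower ratio. The 8 markers by which the early post-selection-like stage was named also moved with these genes, with a sum of 4930 CPM in the WT and 2970 CPM in the *Eif4g2* cKO cells of the stage, and their part in the result was not tested. *Nfkb1* had 341 and 137 UMIs (log2 −1.14, −1.44 to −0.85), and *Tnfaip3* 101 and 47 UMIs (log2 −0.93, −1.46 to −0.42). *Nfkb2* (log2 −0.72, −1.36 to −0.105) and *Rela* (log2 −0.63, −1.03 to −0.24) were also beyond 0.5. In contrast, *Relb* had 77 and 62 UMIs (log2 −0.14, −0.65 to 0.36). *Nfkbia* had 836 and 938 UMIs, a log2 ratio of 0.34 (0.20 to 0.48).

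Calls were set at 0.5 on the log2 scale, with at least 50 UMIs over both libraries. In early post-selection-like cells 5 of 9 members were lower, against 36.3% of genes, and 0 were higher, against 6.81%. In DP-like cells 3 of 8 members were lower (*Nfkb2*, *Rel* and *Tnfaip3*), against 29.6%, and 0 were higher, against 8.26%. In mature SP-like cells 5 of 9 were lower (*Nfkb1*, *Rel*, *Relb*, *Nfkbib* and *Tnfaip3*), against 35.5%, and 0 were higher, against 14.6%. *Nfkb1* had 268 and 11 UMIs there (log2 −1.60, −2.62 to −0.73), while the intervals of the other 4 included 0. *Nfkbie*, with 26 and 9 UMIs, was too shallow there for the count and was higher in *Eif4g2* cKO (log2 1.48, 0.20 to 2.62). In cycling cells 3 of 7 were lower (*Nfkb1*, *Rel* and *Tnfaip3*), against 36.5%, and 0 were higher, against 3.71%. In DN-like cells 1 of 5 was lower (*Rela*), against 25.9%, and 1 was higher (*Nfkbie*), against 10.4%, and both intervals included 0. With so few members, these shares do not set the list apart from the background in any stage, and the early and mature counts of 5 fell to 3 when ratios were centred on the median of all genes.

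The ratio moved with the genomic span of a gene, so each member was set beside the genes of its span class. The median log2 ratio in early post-selection-like cells was −0.27 over all 7295 genes, 0.069 for genes up to 5 kb and −0.90 for those over 100 kb. *Nfkb1* spans 107 kb (chr3:135584655-135691547), and its ratio lay −0.24 from the median of its class, at which 33.4% of the 861 genes over 100 kb were lower still. *Rel* spans 34.1 kb (chr11:23736847-23770970), in a class with a median of −0.30, and lay −2.11 from it. *Tnfaip3* (14.7 kb, chr10:19000910-19015657) lay −0.88 and *Nfkb2* (8.07 kb, chr19:46304320-46312385) −0.67 from a class median of −0.047. *Nfkbia* spans 3.24 kb (chr12:55489410-55492647) and lay 0.27 above its class. In DP-like cells the *Nfkbia* ratio of 0.20 equalled the median of its class, 0.20, and the *Nfkb1* ratio of −0.28 was above the median of its class, −0.76. What part the span has in these ratios was not tested.

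**Figure D3:**
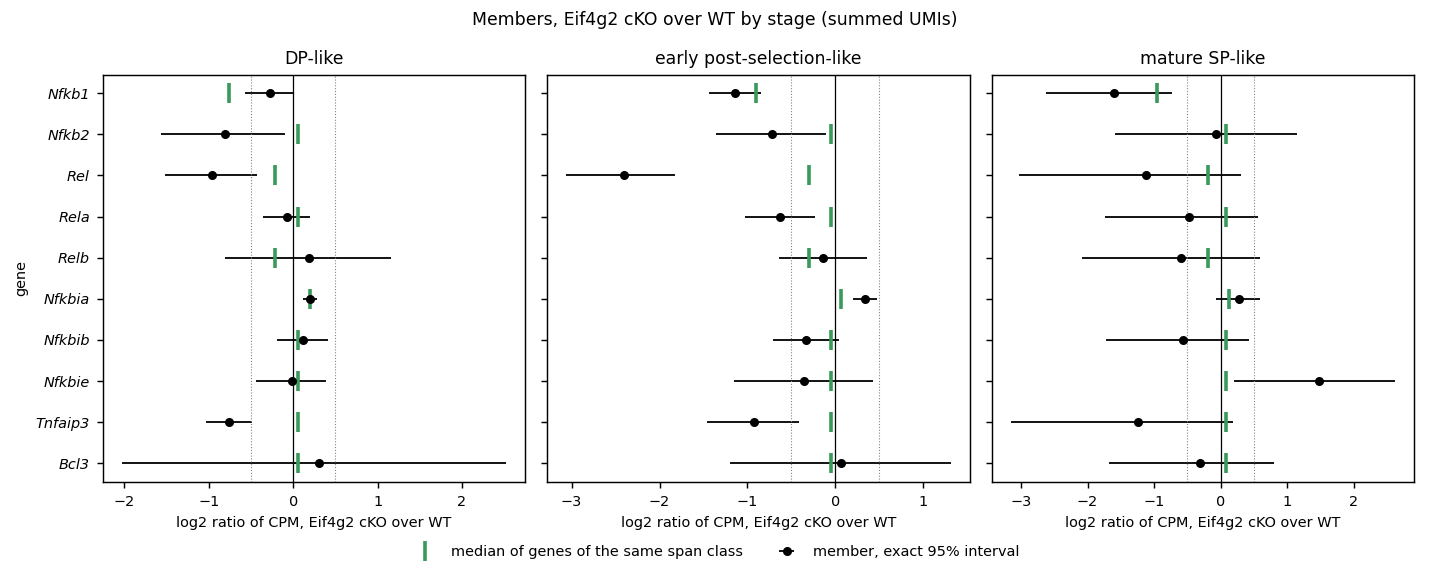
Log2 ratio of CPM, *Eif4g2* cKO over WT (horizontal axis), of each gene (vertical axis) in DP-like, early post-selection-like and mature SP-like cells; black points carry exact 95% intervals, green ticks give the median of all tested genes of the same span class, and dotted lines mark 0.5 in either direction. *Rel* at −2.41 in early post-selection-like cells lies far left of its tick at −0.30, while *Nfkb1* lies near its tick at −0.90.

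Because the classes held different clusters in the 2 libraries, the members were also read cluster by cluster. Early post-selection-like cells made up cluster 2 (546 WT and 427 *Eif4g2* cKO cells, led by *Nr4a1*, *Ikzf2*, *Cd5* and *Cd69*) and cluster 5 (382 and 267 cells, led by *Itm2a*, *Izumo1r* and *Ccr7*). *Rel* levels were 65.4 CPM (WT) and 16.6 CPM (*Eif4g2* cKO) in cluster 2, and at 85.8 and 11.7 CPM in cluster 5. *Nfkb1* stood at 185 and 96.7 CPM in cluster 2 and at 133 and 46.9 CPM in cluster 5. The log2 ratios in clusters 2 and 5 were −1.98 and −2.87 for *Rel*, −0.94 and −1.51 for *Nfkb1*, and −0.67 and −1.51 for *Tnfaip3*, each with an interval below 0. *Nfkbia* was higher in *Eif4g2* cKO in both, at 0.32 and 0.36.

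In DP-like cells the clusters gave another picture for *Tnfaip3*. Within cluster 0 the WT level was 80.0 CPM and the *Eif4g2* cKO level 70.8 CPM, and within cluster 1 they were 29.6 CPM (9 UMIs) and 42.8 CPM. Over all DP-like cells *Tnfaip3* was lower in *Eif4g2* cKO (log2 −0.76, −1.03 to −0.49). Within clusters 0 and 1 the log2 ratios were −0.18 (−0.82 to 0.41) and 0.53 (−0.44 to 1.69), and both intervals included 0. The interval of cluster 0 also held −0.76, so a drop of that size is not excluded there. *Rel* gave −0.39 and −0.32 in the 2 clusters, with intervals that included 0, beside −0.96 (−1.52 to −0.42) over both. In cycling clusters 3, 6 and 8 the ratios were 0.73, 0.02 and −0.81 for *Nfkb1* and 0.28, 0.87 and −1.08 for *Tnfaip3*. *Rel* gave −0.15 and −1.15 in clusters 6 and 8 and had 0 WT UMIs in cluster 3. Only the *Tnfaip3* interval in cluster 8 excluded 0 (−2.07 to −0.17). Cluster 3 held 36 WT cells and cluster 6 held 49 *Eif4g2* cKO cells.

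**Figure D4:**
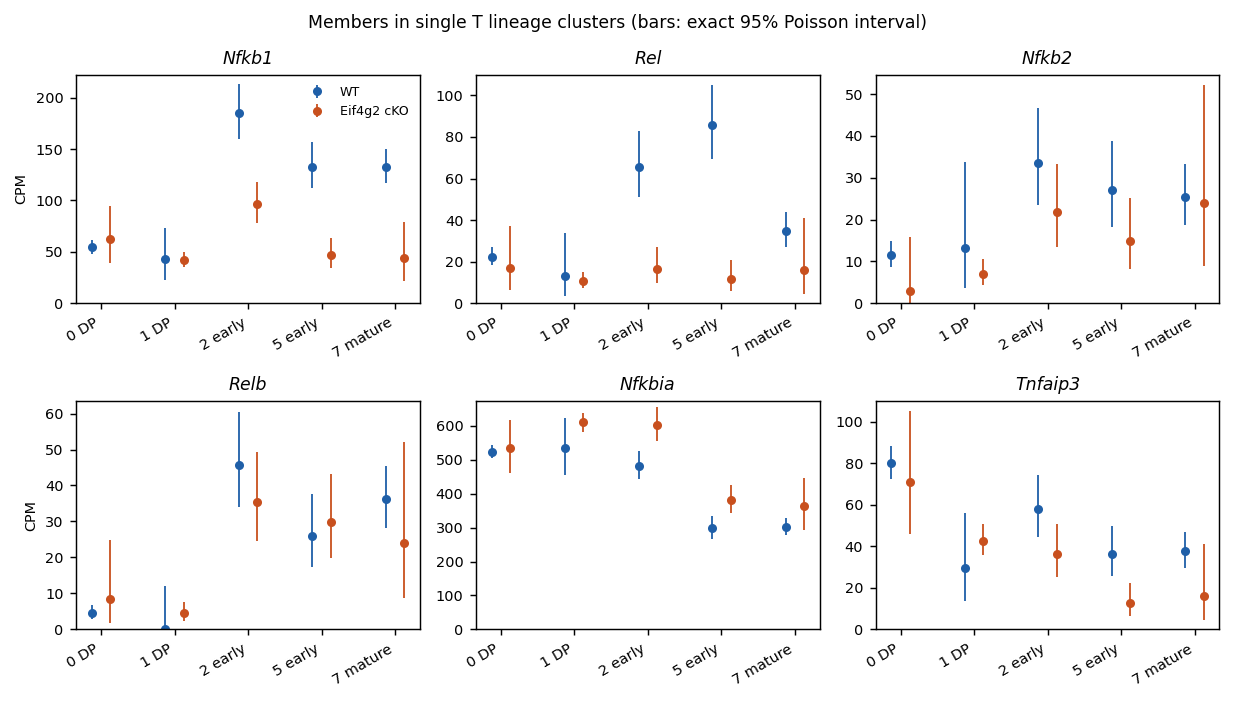
CPM (vertical axis, from 0) of 6 members in single clusters of T lineage cells (horizontal axis, with the stage each was named for) for WT (blue) and *Eif4g2* cKO (orange), 1 library each; bars are exact 95% Poisson intervals. *Rel* differs between the libraries in both early clusters (65.4 against 16.6 and 85.8 against 11.7 CPM), while *Tnfaip3* stands at 80.0 and 70.8 CPM in DP cluster 0 and at 29.6 and 42.8 CPM in DP cluster 1.

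Re-clustering of the early and mature cells gave 11 sub-clusters, 6 of which held at least 20 cells of each library. Sub-cluster 2 (90 WT and 182 *Eif4g2* cKO cells), led by *Hivep3*, *Nfatc1* and *Myb*, had the highest *Nfkb1* and *Rel* levels of all sub-clusters with over 20 cells. *Nfkb1* stood there at 464 CPM in WT (364 to 584) and 142 CPM in *Eif4g2* cKO (104 to 190), and *Rel* at 134 and 34.8 CPM. *Nfkb2* (89.0 and 28.5 CPM) and *Relb* (114 and 41.1 CPM) were also highest there in WT and lower in *Eif4g2* cKO, with log2 ratios of −1.65 (−3.04 to −0.34) and −1.48 (−2.63 to −0.37). Markers of the stage were lower there too, with *Ikzf2* at 2070 and 863 CPM, *Itm2a* at 840.0 and 420.0 CPM, *Nr4a1* at 833 and 591 CPM and *Cd69* at 458 and 266 CPM, and their part was not tested. The median ratio of the 1638 genes tested in this sub-cluster was 0.039, and that of its genes over 100 kb −0.89. *Nfkbia* did not show this pattern, at 903 and 898 CPM.

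Sub-cluster 8 (22 and 55 cells) was led by *Xcl1*, *Nrgn*, *Nr4a2* and *Pdcd1* and carried 5 markers of strong signalling. *Rel* levels there were 96.0 CPM (WT) and 16.0 CPM (*Eif4g2* cKO), from 9 and 4 UMIs, and *Nfkb1* at 224 and 100 CPM. In sub-cluster 0 (298 and 97 cells), named for DP markers, *Nfkb1* had 81 and 8 UMIs (log2 −2.04, −3.30 to −0.995) and *Rel* 27 and 1. The ratio of *Rel* was below 0 in all 5 of the 6 sub-clusters that allowed one, since sub-cluster 9 had 6 WT UMIs and 0 *Eif4g2* cKO UMIs. The interval excluded 0 in sub-clusters 0, 2, 7 and 8. For *Tnfaip3* and *Rela* the interval included 0 in each of these 6 sub-clusters. *Tnfaip3* ratios ran from −1.37 in sub-cluster 7 to 0.19 in sub-cluster 0, with 0 WT and 6 *Eif4g2* cKO UMIs in sub-cluster 8. *Rela* ratios ran from −1.03 in sub-cluster 7 to 1.91 in sub-cluster 8. Sub-clusters 1, 3 and 4 held 297, 258 and 223 WT cells but 5, 4 and 12 *Eif4g2* cKO cells, too few to compare. The early post-selection-like cells of the 2 libraries thus lay in part in different sub-clusters. Sub-clusters 3 and 4 held 220 and 223 such WT cells but 4 and 12 *Eif4g2* cKO ones. Sub-clusters 5 and 6 held 28 and 8 such WT cells but 178 and 119 *Eif4g2* cKO ones. What part this has in the ratios of the stage was not tested.

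Among mature SP-like WT cells, those with a *Cd4* UMI only (65 cells) and those with a *Cd8a* or *Cd8b1* UMI only (187 cells) were compared. *Bcl3* stood at 42.5 CPM (20.4 to 78.1) in the former and 17.6 CPM (9.83 to 29.0) in the latter, *Relb* at 55.2 and 29.3 CPM, and *Nfkb1* at 149 and 111 CPM. The intervals of the log2 ratio included 0 for all 10 members, and 8 and 12 *Eif4g2* cKO cells were too few to compare.

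The rest of the pathway was followed in 4 lists, which were chosen with earlier results of these data known. Their counts and medians are set beside all genes and not beside genes of like span. What part the span has in them was not tested. Of 18 kinases and adaptors, 12 of 17 deep enough were lower in *Eif4g2* cKO early post-selection-like cells, against 36.3% of genes, and 0 were higher, against 6.81%, with a median log2 ratio of −0.69 beside −0.27 for all genes. They included *Malt1* (log2 −1.54, −2.19 to −0.93), which encodes a paracaspase, and *Map3k14* (log2 −1.43, −1.97 to −0.93), which encodes NIK. *Bcl10* was at 0.10 and *Ikbkb*, the catalytic IκB kinase, at −0.25, with intervals that included 0. In DP-like cells 7 of 18 were lower, near the 29.6% of all genes, among them *Prkcq* (−1.08), which encodes protein kinase C theta. None of the 18 was beyond 1 in either direction between early post-selection-like and DP-like cells in both libraries.

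Of 12 other inhibitors and deubiquitinases, *Nfkbid*, which encodes the atypical IκBNS, was above DP-like in early post-selection-like cells, at 68.6 against 11.2 CPM in WT and 44.8 against 14.9 CPM in *Eif4g2* cKO. In the comparison of genotypes 8 of 11 were lower in early post-selection-like cells, against 36.3% of genes, and 0 were higher, with a median of −0.62 beside −0.27. Among them was *Cyld*, a deubiquitinase, at −0.85 (−1.25 to −0.465). *Nfkbiz* was lower in DP-like cells, from 119 to 21 UMIs (log2 −1.87, −2.62 to −1.20).

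Of 11 receptors of the TNF family, *Tnfrsf9* (4-1BB) rose from DP-like to early post-selection-like cells in both libraries, from 2.97 to 83.6 CPM in WT and from 4.02 to 84.8 CPM in *Eif4g2* cKO. *Tnfrsf4* (OX40) rose from 3.90 to 108 CPM in WT and stood at 16.9 CPM in early post-selection-like *Eif4g2* cKO cells, a log2 ratio between genotypes of −2.68 (−3.26 to −2.14). In all, 3 of 7 receptors were lower there, near the 36.3% of all genes, and 0 higher, with a median of −0.31 beside −0.27. *Tnfrsf4*, *Tnfrsf9* and *Tnfrsf18* also stand in the marker lists used for naming clusters. *Cd27*, the most abundant of them, was at 738 CPM in DP-like WT cells and 311 CPM in mature SP-like ones.

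Of 20 target genes, 10 of 13 were lower in *Eif4g2* cKO early post-selection-like cells, against 36.3% of genes, and 0 were higher, with a median of −0.74 beside −0.27 for all genes. *Birc3*, an inhibitor of apoptosis that also feeds back on NIK, was at −0.89 (−1.31 to −0.47) and *Junb* at −0.86 (−1.04 to −0.68), while *Ier2* was at 0.27 (0.02 to 0.52). Against DP-like cells, *Ccr7* and *Ier2* were higher and *Bcl2l1* (Bcl-xL) and *Sdc4* lower in early post-selection-like cells. *Bcl2l1* went from 373 to 73.3 CPM in WT and from 233 to 59.0 CPM in *Eif4g2* cKO. That was the opposite course to *Relb* in both libraries and to *Rel* in WT. *Ccr7* and *Il2ra* are also among the markers by which stages were named, so their course over stages is no separate result, and several targets are controlled by other factors as well.

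Profiles over the 10 combinations of stage and library were compared by Pearson correlation of log2(CPM + 10), as a description, since 10 points of 2 libraries share depth and cells. The genes most like *Rel* were *Cd274* (0.968), *Cox10* (0.948) and *Ubac2* (0.942). Those most like *Relb* were *Cnn2* (0.973), *Crybg1* (0.971) and *Ephx1* (0.969), and those most like *Nfkb2* were *Fam102a* (0.978), *Tes* (0.974) and *Bin1* (0.964). *Nfkb1* was most like *Zfp467* (0.972), *Rin3* (0.968) and *Zadh2* (0.958). *Nfkbia* was most like *Sys1* (0.974), *S100a13* (0.970) and *Zfp36* (0.966), and *Tnfaip3* most like *Diaph1* (0.994), *Gm7072* (0.986) and *Abhd18* (0.986). The best match was weaker for *Rela* (*St8sia4*, 0.946), *Nfkbib* (*Plcl2*, 0.903) and *Nfkbie* (*Ankrd13a*, 0.882). *Bcl3*, with 115 and 33 UMIs, was below the minimum of 200 UMIs set for this description. *Nfkb2*, *Nfkbib* and *Bcl3* overlap genes annotated on the opposite strand, and *Nfkb1* overlaps *Gm43430*, annotated on the same strand. Whether the counting used strand is not given in the sources used here. The counts of these members may therefore hold reads of those neighbours.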

How the data were processed

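The thymus single-cell libraries were made on the DNBelab C4 system. The authors deposited raw UMI counts per gene and cell, made with dnbc4tools (version 2.1.3 in the series text, 3.0 in the deposited headers) on mm10. The oligo libraries have no count file and were not used. Cells with at least 50 genes and up to 10% mitochondrial UMIs were kept (6012 WT and 4335 *Eif4g2* cKO). They were clustered without NF-κB genes (2000 variable genes, 30 principal components, 20 neighbours, Leiden resolution 1.0; scanpy 1.11.5), and clusters were named from at least 3 raised markers. Doublets were not removed. UMIs were summed per stage and library and divided by the stage total (CPM), with exact Poisson, binomial and Clopper-Pearson intervals, a pseudocount of 10 CPM for profiles and a floor of 3 UMIs for counts of 0. Cells were thinned to 1000 UMIs for shares. Spans came from GENCODE M21. The ratios were tested on simulated data. Named genes were all 10 members, in each pathway list the 2 highest and 2 lowest ratios at 100 UMIs or more, and the 3 most similar profiles. Members and lists were chosen with earlier results of these data known. Alternatives to the clustering, thinning, scaling and minimum were computed, and single clusters and scaling by span class were added after seeing the data. The values of 1 gene of the kinase and adaptor list are not reported here.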

Additional observations from a re-analysis of the deposited data

Results flagged for a closer look

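The WT mouse is labelled female, yet its library held 2542 UMIs from the Y chromosome (*Kdm5d*, *Uty* and *Eif2s3y* summed), a signal outside the main measurement. The *Eif4g2* cKO library, labelled alike, held 1. These genes stand in none of the NF-κB lists. They were not kept out of the clustering or of the CPM totals, and their part there was not tested. The part that a difference of sex has in any difference between the libraries was not tested, and sex and genotype cannot be told apart if the WT mouse was male.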

How the results depend on the processing

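No paired analysis was possible because there was 1 library per genotype. Of 530 ratios of *Eif4g2* cKO over WT recomputed under the alternatives, 481 stayed within the counting interval of the reported value. In 61 the sign was opposite, and 9 of these concerned a called ratio. Of 780 ratios over DP-like cells, 713 stayed within it, 39 had the opposite sign, and 1 of these concerned a called ratio. Among ratios not called, *Nfkb1* in DP-like cells ranged from −0.30 to 0.48, *Relb* in early post-selection-like cells from −0.42 to 0.19 and *Bcl3* there from −1.58 to 0.33, so that their signs were not stable. *Rel* in early post-selection-like cells ranged from −2.87 to −1.94 and *Nfkb1* from −1.51 to −0.24, the latter when centred on its span class.

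The 2 members above DP-like in early post-selection-like cells became 0 with cluster 5 alone and with each library clustered alone, and 1 was then below with cluster 5 alone, against 0. The log2 ratios of these 2 members stayed beyond 1 under every alternative, so they left the count through the minimum of 50 UMIs. *Relb* ranged from 2.61 to 3.51 in WT and from 2.26 to 3.14 in *Eif4g2* cKO. *Nfkb2* ranged from 1.01 to 1.55 and from 1.18 to 1.73. For mature SP-like cells the count above was 0, and became 1 at resolution 0.6 and 3 without a minimum. The 1 member below became 0 at resolution 1.6, with the stricter cell filter, with another seed, after thinning and with means of cells. For *Eif4g2* cKO over WT, the 3 members lower in DP-like cells became 0 with cluster 1 alone, where 1 was higher. *Nfkb2* (log2 −0.905, from 4 WT and 22 *Eif4g2* cKO UMIs) and *Rel* (−0.32, from 4 and 33) were below the minimum of 50 UMIs there. In early post-selection-like cells the 5 lower became 3 when centred on the median of all genes, and 1 was higher there and after thinning. In mature SP-like cells the 5 lower became 3 with the stricter filter, with centring and with means of cells, and 1 after thinning, while the 0 higher became 1 with the stricter filter, 3 after thinning and 1 without a minimum.

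Called ratios that changed sign, as log2 ratios of *Eif4g2* cKO over WT, were *Nfkb1* in cycling cells centred on its span class (0.483), *Rela* in DN-like cells after thinning (0.915) and with means of cells (0.0261), and *Tnfaip3* in DP-like cluster 1 alone (0.531) and in cycling cells of libraries clustered alone (0.0994). In mature SP-like cells they were *Relb* with the stricter filter (0.184), and after thinning *Relb* (0.8), *Rel* (0.408) and *Tnfaip3* (0.215). *Tnfaip3* in mature SP-like over DP-like *Eif4g2* cKO cells gave 0.492 after thinning. The causes were not tested. The single clusters and the centring on span class were chosen after seeing the data. Clustering each library alone left 0 mature SP-like *Eif4g2* cKO cells and gave no value there. The 49 such cells limit all mature values. They also differed in kind from the 455 WT cells. Sub-cluster 1 held 275 WT and 4 *Eif4g2* cKO mature SP-like cells. Sub-cluster 9, led by *Ifit3* and *Ifit1*, held 47 and 19, and sub-cluster 10, named for cycling markers, held 42 and 12.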
